A study of Sus scrofa with 28 samples.

Results

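The genes described here encode the enzymes that put ubiquitin on proteins and take it off: 33 UBE2 genes and 48 USP genes of the pig, 81 of the 19484 protein-coding genes on the chromosomes of the peak lists. They are all protein-coding RefSeq genes (Sscrofa11.1) whose symbol begins with UBE2, or with USP and a digit. A gene counted as listed in a library when the centre of a peak of that library lay within 1000 bp of either annotated end of the gene, called an end peak below. The reference table gives neither strand nor exons, so start and end sites could not be told apart. USP6NL meets the symbol rule but encodes a GTPase-activating protein, not a deubiquitinase. One record with a matching symbol that is annotated as non-coding was not a member.

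The libraries measure open chromatin by ATAC-seq, in which a transposase cuts accessible DNA and tags it for sequencing. They came from liver of Zlotnicka White pigs, all female, 180 days old and slaughtered at about 100 kg under the same feeding and housing. Cells were released with Accutase, strained and frozen slowly before library preparation. There were 28 libraries in 4 groups of 7: high fat 200, low fat 200, high fat 600 and low fat 600. All animals thus shared breed, sex, age and feeding, and the groups differed by the label of high or low fat content. The tag that holds the fat label is named shear force, and what 200 and 600 stand for is not stated in the labels. The animals are not named in the labels. A 200 and a 600 library with the same fat group and replicate number carry the same final number in their titles and are called same-numbered here, with no claim that they share an animal. The 200 and 600 libraries also carry different lane tags, so label and lane cannot be told apart.

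Ubiquitin is a small protein that is joined to other proteins to mark them for the proteasome, for sorting or for signalling. An E1 enzyme activates it, an E2 enzyme (the UBE2 family) carries it, and an E3 ligase directs it to the target. Some UBE2 enzymes carry related modifiers, such as SUMO, NEDD8 or ISG15. The USP enzymes are the largest family of deubiquitinases, proteases that remove ubiquitin or edit its chains. In hepatocytes, which secrete and degrade large amounts of protein, this system clears misfolded proteins of the endoplasmic reticulum and adjusts the levels of metabolic enzymes.

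The libraries of each group differed widely in yield. Peak numbers ran from 205 to 17652 in the high fat 200 group (median 1610), from 196 to 8221 in the low fat 200 group (median 2467), from 39 to 6453 in the high fat 600 group (median 190) and from 101 to 3775 in the low fat 600 group (median 526). Read depth is unknown. Among the 15 libraries with at least 1000 peaks, high fat 200 replicate 3 listed the fewest protein-coding genes per 100 peaks, 25.2 (1583 genes, 6288 peaks), followed by high fat 600 replicate 3 with 29.9, and the other 13 had 40.1 to 83.3. Libraries with fewer peaks ran from 1.98 to 87.5. Of hepatocyte markers 6 of 9 had an end peak, led by TTR in 8 libraries and ALB in 7, while APOB, CPS1 and HNF4A had none. All 7 endothelial and stellate markers and the 4 cholangiocyte markers found were at 0. Of 6 Kupffer cell markers only CD14 had an end peak (6 libraries), of 6 lymphocyte markers CD3D and NKG7 had one in 1 library each, and of 3 erythroid markers GATA1 had one in 2. Over all protein-coding genes with a symbol the share with an end peak in at least 1 library was 52.9%, and the marker lists were not tested.

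An end peak in at least 1 library was found for 24 of 33 UBE2 genes (72.7%, 95% exact Clopper-Pearson interval 54.5 to 86.7) and for 37 of 48 USP genes (77.1%, 62.7 to 88.0). The intervals treat genes as independent draws. The same share was 47% over all protein-coding genes and 52.9% over the 16315 that have a symbol, as every member does. At least 3 libraries listed 15 UBE2 genes (45.5%) and 30 USP genes (62.5%), beside 29.5% of all protein-coding genes and 33.4% of those with a symbol. At least 10 libraries listed 2 UBE2 genes (6.06%) and 10 USP genes (20.8%), beside 7.82% and 8.98%. At 3 libraries the interval was 28.1 to 63.6 for UBE2 and 47.4 to 76.0 for USP. At 10 libraries it was 0.743 to 20.2 and 10.5 to 35.0. The members were chosen with earlier results of these data known, so the intervals give no test against the background. These shares describe the families and were not tested, and the difference between the families was not tested. Among listed genes the median number of libraries was 4 for UBE2, 5 for USP and 4 for all protein-coding genes.

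**Figure D1:**
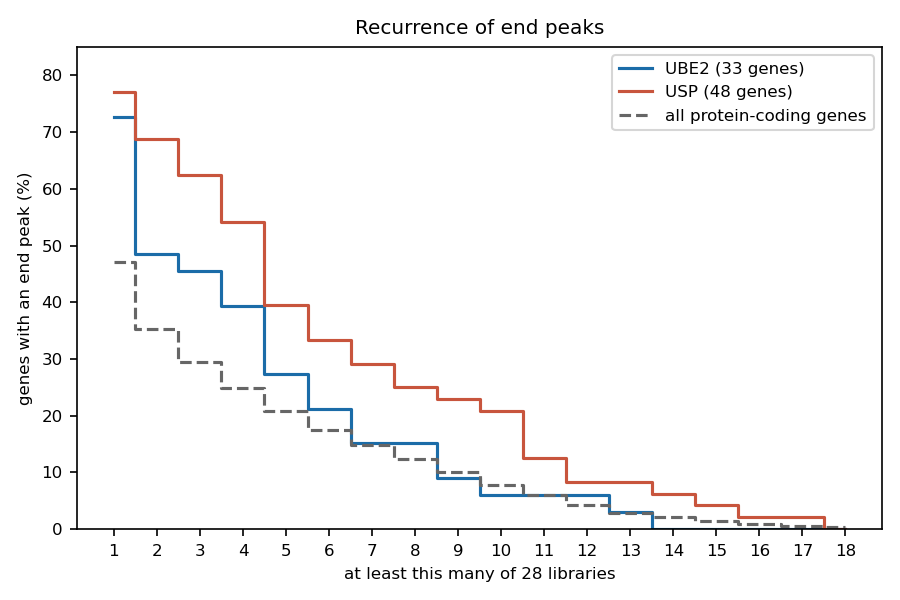
Percentage of genes with an end peak (vertical axis) in at least the given number of the 28 libraries (horizontal axis), for 33 UBE2 genes, 48 USP genes and all protein-coding genes (dashed). The UBE2 line starts at 72.7% and is at 6.06% for 10 libraries, below the dashed line at 7.82%, while the USP line starts at 77.1% and is at 20.8% for 10 libraries.

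USP53 was the most recurrent member, in 17 of 28 libraries, a number that 122 protein-coding genes (0.626%) reached. It encodes an atypical member of the family found at cell junctions, and its human gene is linked to inherited cholestasis. Its peaks formed 1 site at chr8:104559689-104561244, with centres 76 to 305 bp inside the gene. In the high fat 200 group the deposited −log10 p was 8.07, 3.93 and 7.98 in replicates 1, 5 and 7. In the low fat 200 group it was 8.20, 3.71, 4.62, 3.80, 5.89 and 8.08 in replicates 1 and 3 to 7. The fat groups overlapped, and in each the highest values were those of replicates 1 and 7. Among 600 libraries it was 5.59, 3.73 and 6.53 in high fat replicates 1, 3 and 7, and 5.18, 3.59, 3.57, 3.39 and 6.37 in low fat replicates 1 and 4 to 7. The end of SEC24D, a gene of a vesicle coat protein, lay in the same window, so the site cannot be given to either gene.

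USP25, a deubiquitinase of proteins of the endoplasmic reticulum, followed with 15 libraries, at chr13:180570406-180571953. Its −log10 p was 9.16, 4.54, 4.53 and 7.84 in high fat 200 replicates 1, 4, 5 and 7. It was 8.32, 4.18, 4.85, 5.99 and 8.08 in low fat 200 replicates 1, 3, 4, 6 and 7. The fat groups overlapped here too, and the 2 high fat values near 4.5 came from libraries of 1610 and 1137 peaks. In the 600 set it was 5.44 and 5.72 in high fat replicates 1 and 7, and 4.80, 3.67, 5.08 and 5.25 in low fat replicates 1, 4, 6 and 7. With a percentile of 99.4 among the peaks of low fat 200 replicate 1, it held the highest rank within a library of any member, ahead of USP53 (99.3) and USP1 (98.8).

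USP1, which removes ubiquitin from the DNA repair proteins FANCD2 and PCNA, was listed in 14 libraries at chr6:149984528-149986905. Its −log10 p was 8.83, 4.15 and 7.98 in high fat 200 replicates 1, 3 and 7, and 6.40, 5.17, 6.08 and 6.73 in low fat 200 replicates 1, 4, 6 and 7. In the 600 set the high fat values were 6.22 and 6.05 (replicates 1 and 7), and the low fat values were 4.80, 3.50, 3.34, 4.37 and 6.56 (replicates 1 and 4 to 7). No other gene end lay in the window of this site. USP5, which takes apart free ubiquitin chains, was listed in 13 libraries. Its recurrent site, chr5:63857478-63860463, was 2986 bp long, and its peak centres ran from 853 bp outside the gene to 537 bp inside it. The end of CDCA3, a cell division gene, lay in the same window. At the other end of USP5, beside the glycolysis gene TPI1, high fat 200 replicate 7 and low fat 200 replicate 6 listed a weaker site of −log10 p 3.84 and 3.98.

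**Figure D2:**
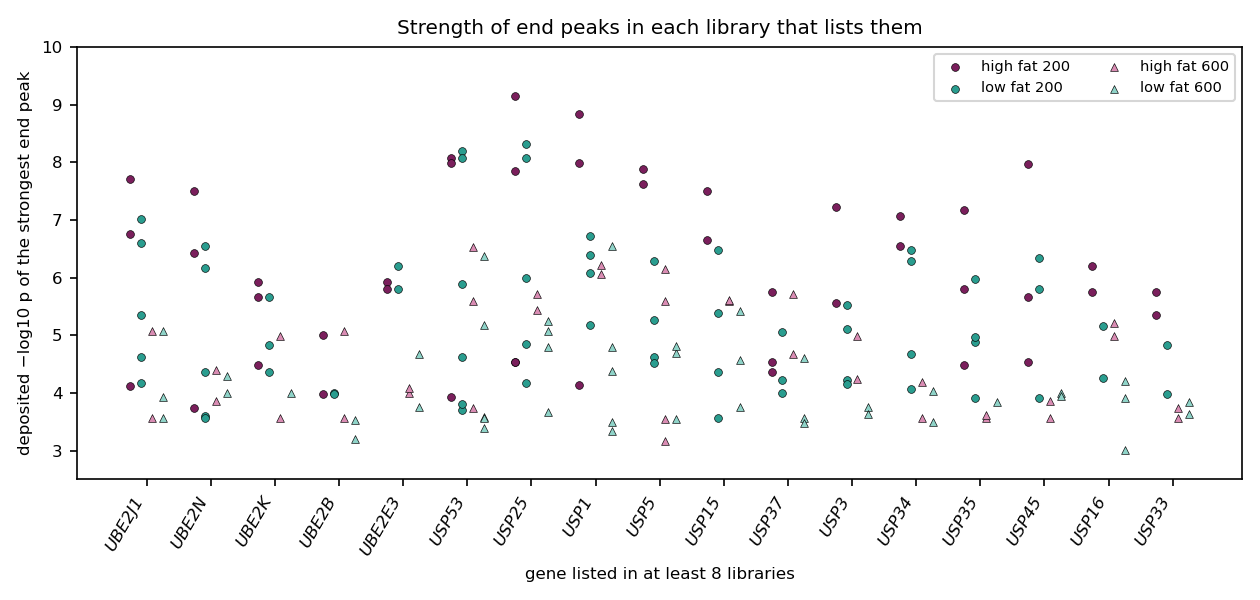
Deposited −log10 p of the strongest end peak (vertical axis) for each gene listed in at least 8 libraries (horizontal axis), 1 point per library that lists it, circles for 200 and triangles for 600 libraries. USP25 reaches 9.16, USP1 8.83 and USP53 8.20, the ranges of high and low fat points overlap at each of these 17 genes, and the highest point of each gene is that of a 200 library except for UBE2B, where 5.07 comes from a 600 library.

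Further USP genes with at least 8 libraries were USP15 and USP37 (11 each), USP3, USP34, USP35 and USP45 (10 each), USP16 (9) and USP33 (8). USP15 acts in receptor signalling, USP37 in the cell cycle, USP34 in Wnt signalling, USP45 in DNA repair and USP33 in membrane traffic, and USP3 and USP16 remove ubiquitin from histone H2A. The USP15 site (chr5:26963974-26965535) crossed the gene end, with all peak centres at least 229 bp inside the gene. The centres at USP34 lay 146 to 793 bp inside, with a long non-coding RNA gene end in the window. The centres at USP35 ran from 333 bp outside to 210 bp inside the gene, and KCTD21 shared the window. USP37 shared its site with CNOT9, a subunit of the deadenylase complex, and centres lay from 139 bp outside to 200 bp inside.

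The leading UBE2 gene was UBE2J1, an E2 of the endoplasmic reticulum membrane that serves the disposal of misfolded proteins, with 13 libraries at chr1:57363653-57365107. Its −log10 p was 7.70, 4.12 and 6.75 in high fat 200 replicates 1, 4 and 7. It was 6.60, 4.18, 4.62, 5.35 and 7.02 in low fat 200 replicates 1, 3, 4, 6 and 7. The 2 fat groups overlapped. In the 600 set the values were 3.57 and 5.07 (high fat replicates 1 and 7) and 3.57, 3.93 and 5.08 (low fat replicates 1, 6 and 7). The site lay mostly outside the gene, with centres from 348 bp outside to 37 bp inside.

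UBE2N, the E2 that builds signalling chains together with a UBE2V partner, was listed in 12 libraries at chr5:89672886-89674322. Its −log10 p was 7.50, 3.74 and 6.43 in high fat 200 replicates 1, 3 and 7, and 6.17, 3.61, 3.56, 4.36 and 6.54 in low fat 200 replicates 1, 3, 4, 6 and 7. In the 600 set it was 3.86 and 4.40 (high fat) and 4.00 and 4.30 (low fat), each in replicates 1 and 7. In the 200 set the values of replicates 1 and 7 were the highest in both fat groups, which overlapped. UBE2K, which makes chains for degradation, followed with 9 libraries, then UBE2B, a DNA damage tolerance enzyme, and UBE2E3, a broadly acting E2, with 8 each. The highest rank of a UBE2 peak within its library was the 96.4 percentile of UBE2J1, followed by UBE2N (95.8) and UBE2D2 (91.5).

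**Figure D3:**
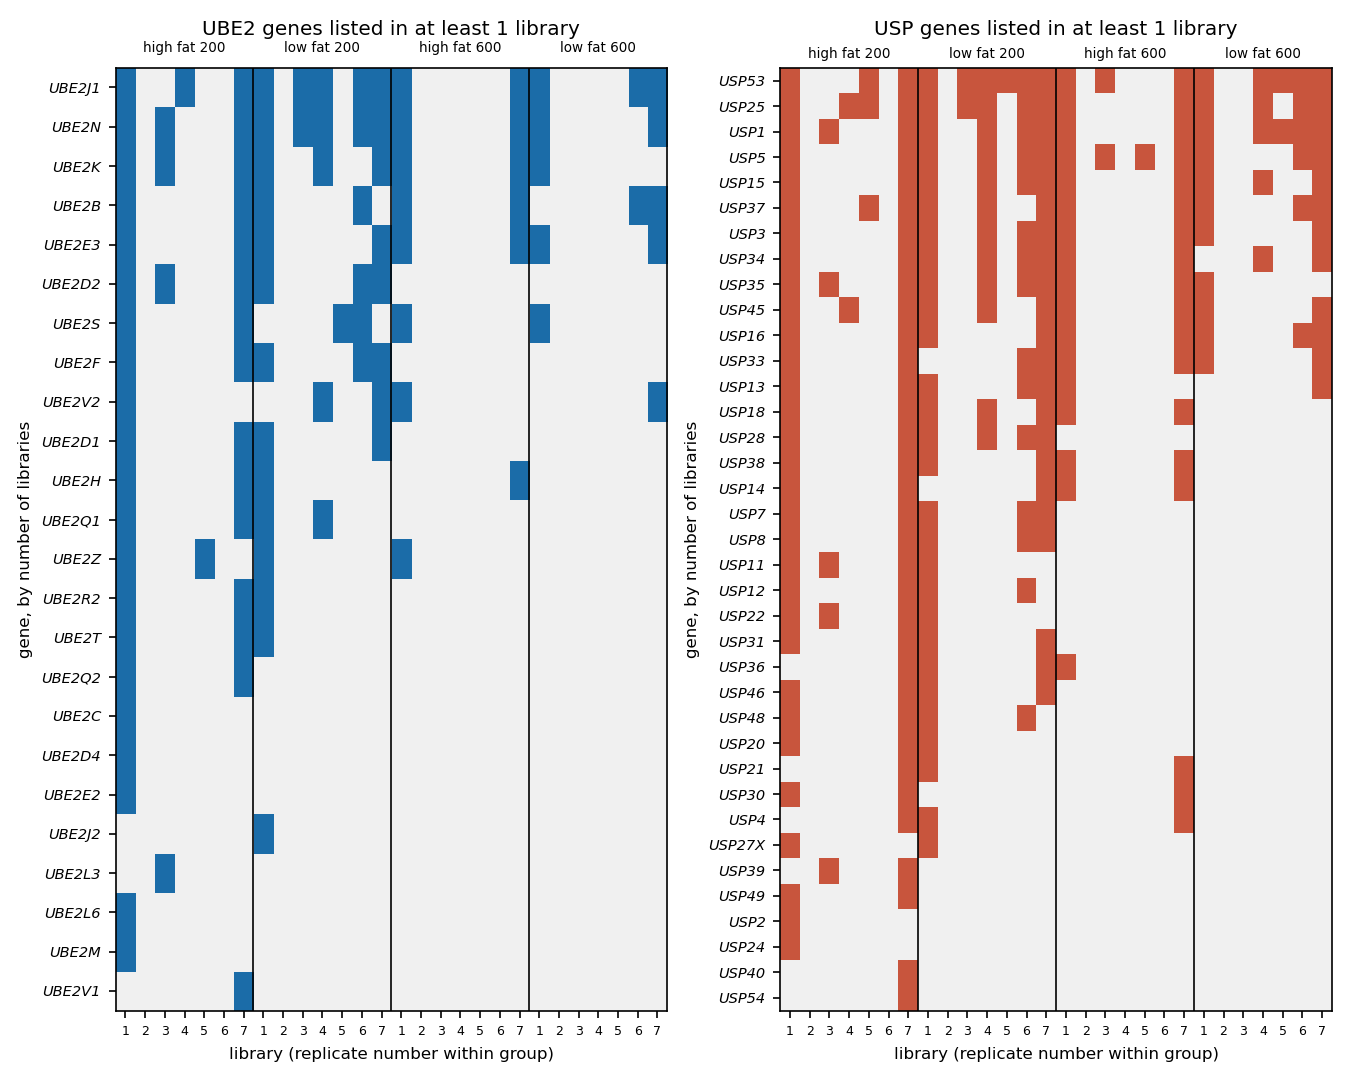
Filled cells mark the libraries (horizontal axis, replicate number within the 4 groups) that list an end peak of each gene (vertical axis), for the 24 listed UBE2 and 37 listed USP genes, ordered by number of libraries. Columns of replicates 1 and 7 are filled most often in each group, USP53 is filled in 17 columns and UBE2J1 in 13, and 8 columns hold no member.

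The counts by role here and below stand beside 47% of all protein-coding genes and 52.9% of those with a symbol. Differences between roles were not tested. By role, the broadly acting UBE2 genes had an end peak in 7 of 9 cases, but none in 10 or more libraries. Among them the close relatives of the UBE2D group differed: UBE2D2 was listed in 6 libraries, UBE2D1 in 4, UBE2D4 in 1 and UBE2D3 in 0. UBE2D3 also had no peak inside the gene. UBE2E3 was listed in 8 libraries and UBE2E2 in 1. UBE2L3 had an end peak in high fat 200 replicate 3 alone. UBE2W, which adds ubiquitin to the amino terminus of proteins, had no peak. UBE2H had one in 4.

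E2s of degradation chains and of the endoplasmic reticulum had an end peak in 5 of 7 cases. After UBE2J1 and UBE2K came UBE2R2, a partner of cullin ligases, in 3 libraries, then UBE2J2 and CDC34, which does not carry the family symbol, in 1 each. UBE2G1 and UBE2G2 had no end peak. The list of UBE2N, its partners and DNA repair E2s had 5 of 6. The partner UBE2V2 was listed in 5 libraries and the partner UBE2V1 in 1, and UBE2T of the Fanconi anaemia pathway in 3. The related genes UBE2B and UBE2A were listed in 8 and 0 libraries. Of the mitotic pair that works with the anaphase-promoting complex, UBE2S was listed in 6 libraries and UBE2C in 1.

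E2s for other modifiers had an end peak in 4 of 5 cases. UBE2F, which carries NEDD8, was listed in 5 libraries and UBE2M, the other NEDD8 enzyme, in 1. UBE2L6, the E2 of the interferon-induced modifier ISG15, was listed in 1, while USP18, which removes ISG15, was listed in 7. USP18 had −log10 p of 6.25 and 5.94 in high fat 200 replicates 1 and 7, and of 4.88, 3.91 and 4.44 in low fat 200 replicates 1, 4 and 7. In the 600 set only high fat replicates 1 (3.05) and 7 (4.09) listed it, fewer than the 3 libraries needed for a test. In the 200 set it was in 2 of 7 high fat and 3 of 7 low fat libraries, and did not pass. High fat 200 replicates 1 and 7 are also the libraries with the most peaks, and a difference in −log10 p was not tested. UBE2Z, which receives ubiquitin from the E1 enzyme UBA6, was listed in 4. Of the large or less studied E2s, 2 of 5 had one, UBE2Q1 (4 libraries) and UBE2Q2 (2), while UBE2O, UBE2QL1 and UBE2U had none.

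USP genes of chromatin, DNA damage and p53 had an end peak in 11 of 14 cases, with a median of 4 libraries. After USP1, USP3 and USP16 came USP28 (6), USP7, which stabilises the p53 regulator MDM2 (5), and USP11, USP22 and USP48 (4 each). USP22 is the deubiquitinase of the SAGA coactivator. USP44, USP51 and USP10 had no peak at an end or inside. All 5 centres at USP7 lay 572 to 802 bp outside the gene.

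USP genes of the proteasome and protein quality control had an end peak in 5 of 7 cases. After USP25 and USP5, USP13 was listed in 7 libraries and USP14, which sits on the proteasome, in 5, while USP24 was listed in 1 and USP19 and USP9X in 0. Genes of endosomes, traffic and signalling had 9 of 12. The endosomal USP8 was listed in 5 libraries. Pairs of close relatives were listed unequally, USP33 in 8 and USP20 in 3, and USP15 in 11 and USP4 in 3. USP12 and USP46 were equal at 4. Of the list set up for mitochondria, USP30, which lies on the outer mitochondrial membrane, was listed in 3 libraries and USP36 in 4, though USP36 is known as a nucleolar enzyme. Among atypical members, USP39 of the spliceosome was listed in 2, USP54 in 1 and USP50 in 0, against the 17 of USP53.

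Of the 20 members without an end peak, 10 had a peak inside the gene, more than 1000 bp from both ends. The most recurrent were those of UBE2A, USP32 and USP9X, each a single site listed in 7 libraries. That of UBE2A lay at chrX:97948996-97950806, 24704 bp from the nearest annotated end, with a median −log10 p of 4.37. That of USP9X, an X-linked deubiquitinase of signalling proteins, lay at chrX:36759486-36762199, 24577 bp from an end (median 3.99). The USP32 site (chr12:37728522-37729765) also lay within 1000 bp of a pseudogene end. USP47 fell just outside the window, with an inner site of 3 libraries at 1176 bp, while the farthest centre still counted for UBE2S lay at 886 bp. UBE2E2, whose gene is long, had inner sites in 6 libraries although its ends were listed in 1. Neither an end peak nor an inner peak was listed for UBE2D3, UBE2QL1, UBE2U and UBE2W, or for USP10, USP19, USP26, USP43, USP44 and USP51.

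End peaks of the members lay close to the annotated ends. The median distance of the centre was 113.5 bp for UBE2 and 175.5 bp for USP, beside 150 bp for all protein-coding genes. Centres lay inside the gene in 41.5% of the UBE2 peaks and 65.0% of the USP peaks, beside 53.4% of all. No UBE2 gene had peaks at both ends, and 4 USP genes did (USP5, USP11, USP20 and USP21, 10.8% of those listed), beside 5.42% of all listed genes. A peak was shared with the end of another gene for 2 of 24 listed UBE2 genes (8.33%), namely UBE2C with DNTTIP1 and UBE2J2 with SCNN1D. It was shared for 10 of 37 listed USP genes (27%), and for 36.4% of all listed genes. These shares were not tested. USP21 shared its lower-coordinate end with PPOX of haem synthesis.

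**Figure D4:**
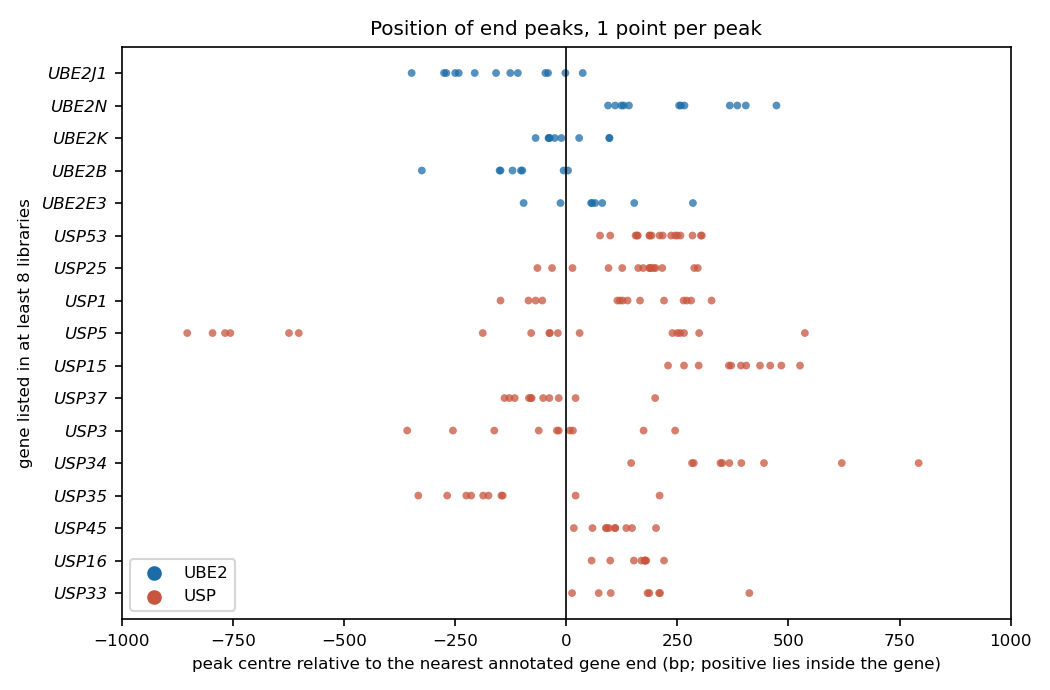
Centre of each end peak relative to the nearest annotated gene end (horizontal axis, in bp, positive values inside the gene) for the genes listed in at least 8 libraries (vertical axis), 1 point per peak. Points of USP53 and USP15 all lie inside the gene, those of UBE2J1 lie between 348 bp outside and 37 bp inside, and those of USP5 spread from 853 bp outside to 537 bp inside.

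In every group the number of members listed differed widely between libraries. At least 1 library of the high fat 200 group listed 23 UBE2 (69.7%) and 37 USP genes (77.1%), beside 43.9% of all protein-coding genes. In the low fat 200 group these were 16 (48.5%) and 30 (62.5%), beside 31.9%. The high fat 600 group had 9 (27.3%) and 20 (41.7%), beside 24.8%, and the low fat 600 group 7 (21.2%) and 13 (27.1%), beside 17.4%. Per library, UBE2 genes ran from 0 to 21 in the high fat 200 group (median 1), from 0 to 14 in the low fat 200 group (median 5), from 0 to 8 in the high fat 600 group (median 0) and from 0 to 5 in the low fat 600 group (median 0). USP genes ran from 0 to 34 (median 3), from 0 to 28 (median 12), from 0 to 18 (median 1) and from 0 to 12 (median 5) in the same order. Replicate 1 held the highest UBE2 number in each of the 4 groups, tied with replicate 7 in the low fat 600 group. In all, 20 libraries listed a member and 8 listed none, and the 15 libraries with at least 1000 peaks gave 95.8% of the 333 listings of a member in a library. In high fat 200 replicate 3 the numbers were 4 and 5, against 15 and 34 in replicate 7. As a share of all listings of protein-coding genes in a group, the members took 0.714% in the high fat 200, 0.777% in the low fat 200, 0.638% in the high fat 600 and 0.674% in the low fat 600 group.

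**Figure D5:**
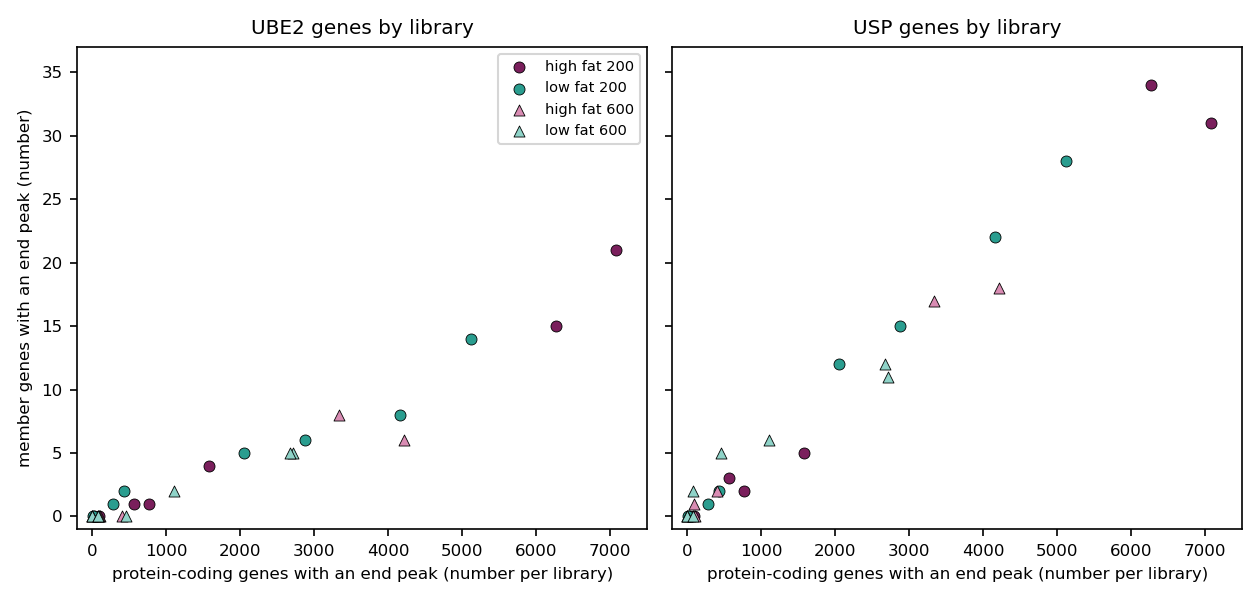
Number of UBE2 genes (left) and USP genes (right) with an end peak (vertical axis) against the number of protein-coding genes with an end peak (horizontal axis) in each of the 28 libraries, coloured by group. The points of all 4 groups rise together, to 21 UBE2 genes in high fat 200 replicate 1 and 34 USP genes in high fat 200 replicate 7.

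High and low fat animals were compared first in the 200 libraries, the question in the series title. USP53 differed most, in 3 of 7 high fat and 6 of 7 low fat libraries, a difference of 42.9 percentage points that did not pass (Fisher's exact test p = 0.266, adjusted p = 1). UBE2J1 and UBE2N, each in 3 of 7 high fat and 5 of 7 low fat libraries, had an exact p of 0.592. USP3, USP5, USP15, USP28 and USP34 were each in 2 and 4, with the same exact p. For USP15 the difference of −28.6 points turned to 15 points with the 1000 strongest peaks of libraries with at least 1000 peaks. In the other direction USP11 and USP22 were each in 3 high fat libraries and in 1 low fat library (exact p = 0.559). Replicate 3, with its low number of listed genes per 100 peaks, was among those 3 libraries for both. At USP11 its only peak lay at the higher-coordinate end (chrX:41865671-41866262). High fat replicates 1 and 7 and low fat replicate 1 had a peak at the lower-coordinate end. High fat replicate 1 also had one at the higher-coordinate end (chrX:41865442-41865773, −log10 p 3.98), which overlapped that of replicate 3. The 3 high fat libraries thus did not all share 1 site. No member and none of the 5191 genes tested passed (0% called, Fisher's exact test with Benjamini-Hochberg adjustment), and 0 had an unadjusted p under 0.05. With 7 libraries against 7, a gene listed in 7 and 0 libraries could pass only if 61 genes were so.

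Of 15 UBE2 genes tested, 4 (26.7%) were in more high fat libraries, 4 (26.7%) in more low fat libraries and 7 in equal numbers. Of 27 USP genes tested, 4 (14.8%) were in more high fat and 14 (51.9%) in more low fat libraries. Over all tested genes these shares were 27.6% and 44.2%, and the median difference was 0 points, as it was for UBE2. The median over the USP genes was −14.3 points, which is 1 library of 7. High fat 200 libraries held 39155 peaks and low fat ones 23035, but their median peak numbers ran the other way (1610 and 2467), and the part of yield in these differences was not tested.

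In the 600 libraries 5 UBE2 and 12 USP genes were listed often enough to be tested. USP1 differed most, in 2 of 7 high fat and 5 of 7 low fat libraries (Fisher's exact test p = 0.286, adjusted p = 1). USP53 (3 and 5) and USP25 (2 and 4) each had an exact p of 0.592. With the 1000 strongest peaks of libraries with at least 1000 peaks, USP53 was in 3 of 3 high fat and 2 of 3 low fat libraries, so its direction turned. USP5 was in 4 high fat and 3 low fat libraries. None of the 2704 genes tested passed (0% called), and 0 had an unadjusted p under 0.05 in Fisher's exact test. More low fat than high fat libraries listed 6 of the 12 USP genes (50.0%), beside 40.5% of all tested genes. With 7 libraries against 7, a gene listed in 7 and 0 libraries could pass here only if 32 genes were so. High fat 600 replicates 2 and 6 listed only 3 and 1 protein-coding genes, and low fat 600 replicate 2 listed 2. A call was thus hardly within reach, and its lack says little about a fat difference in any member.

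The 600 libraries listed fewer members than the 200 libraries. UBE2 listings numbered 78 in the 200 and 26 in the 600 set, or 33.3% of the 200 number, and USP listings 155 and 74, or 47.7%, beside 48.8% for all protein-coding genes. In the 600 libraries 9 UBE2 genes were listed at all (37.5% of the 24) and 20 USP genes (54.1% of the 37), beside 55.2% of all listed genes. Of the 9164 listed protein-coding genes 180 were listed only in 600 libraries, and of the 61 listed members 0. Few genes of any kind were thus particular to the 600 libraries. Peaks were wider there, with a median of 1202 bp against 622 bp for USP and 1010.5 bp against 547.5 bp for UBE2. Over all genes these medians were 1106 and 586 bp.

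UBE2D2 and USP28 had the smallest p among the members, each in 6 of 14 of the 200 libraries and in 0 of 14 of the 600 libraries (Fisher's exact test p = 0.0159, adjusted p = 0.831). At UBE2D2 (chr2:141397405-141398813) the −log10 p of the 200 libraries was 4.88, 3.74 and 6.54 in high fat replicates 1, 3 and 7, and 6.06, 4.36 and 5.27 in low fat replicates 1, 6 and 7. At USP28 (chr9:41480640-41481267) it was 5.35 and 5.51 in high fat replicates 1 and 7, and 5.53, 3.91, 4.36 and 5.46 in low fat replicates 1, 4, 6 and 7. For scale, the median over the end peaks of the 200 libraries was 4.43 for UBE2 and 4.88 for USP genes. UBE2F, USP7 and USP8 were each in 5 and 0 (exact p = 0.0407, adjusted p = 0.831). With the replicate block (exact sign test over same-numbered libraries) UBE2D2 and USP28 had p = 0.0312, and these 3 had p = 0.0625.

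None of the 5741 genes tested passed the adjusted threshold between labels (0% called), while 237 (4.13%) had an unadjusted p under 0.05 in Fisher's exact test, among them these 5 members. That number moved when 1 library was left out. Without any 1 of high fat 200 replicates 2 to 6 or low fat 200 replicates 2 to 7 it was 377 to 680. Members were then 10 to 13. Without high fat 600 replicate 7 the numbers were 407 and 5. The highest number, 680, came without high fat 200 replicate 6 or low fat 200 replicate 2, which listed only 20 and 13 protein-coding genes. The exact p moves in steps with group size, and members in 4 and 0 libraries, such as UBE2D1, had p = 0.0978 in Fisher's exact test with all libraries. Without high fat 200 replicate 1, high fat 200 replicate 7 or low fat 200 replicate 1 the number was 253, 265 and 306, at the same group size. At that size it thus differed with the library left out. The parts of group size and of the listings in the rise were not tested. More 200 than 600 libraries listed 86.7% of the tested UBE2 genes and 86.7% of the tested USP genes, beside 84.0% of all genes. The members' share is near the background. UBE2B and UBE2E3 were listed in 4 libraries of each fat group and 4 of each label, and USP53 in 9 of the 200 and 8 of the 600 libraries. Of the 26 UBE2 listings of the 600 libraries 24 (92.3%) recurred in the 200 library of the same fat group and number, and 66 of 74 (89.2%) for USP, beside 89.4% for all genes. Overlap with 200 libraries of other numbers was not computed, so these shares say nothing particular to the same number.

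With each of the 15 libraries of at least 1000 peaks reduced to its 1000 strongest peaks, 7 UBE2 genes (21.2%) and 14 USP genes (29.2%) kept an end peak, beside 13.2% of all protein-coding genes. USP25 was then listed in 13 of the 15 libraries, USP53 in 12, USP1 in 11, UBE2J1 in 10, USP5 in 9 and USP15 in 7. UBE2N, which had been listed in 12 libraries, was in 3. The other members were in 4 or fewer. USP25 was in 4 of 5 high fat 200, 4 of 4 low fat 200, 2 of 3 high fat 600 and 3 of 3 low fat 600 libraries.

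Other genes of the pathway were described from lists of their own. Of 12 ubiquitin and E1 genes, 8 had an end peak, led by RPS27A, a ubiquitin precursor fused to a ribosomal protein, in 10 libraries, with the NEDD8-activating UBA3 in 5. UBB and UBA1 had one in 1 library each, UBA7 in 2, and UBA2, UBA6, SAE1 and NAE1 in 0. Of 8 genes of E2 or E2-like proteins outside the symbol rule, 7 had an end peak, among them the autophagy genes ATG10 (13 libraries) and ATG3 (11) and BIRC6 (12). Of 35 genes of deubiquitinases and related proteins outside the USP family 29 had one (82.9%), beside 47% of all protein-coding genes. Beside 7.82% of all protein-coding genes, 10 of the 35 were listed in at least 10 libraries. They were led by MINDY2 (15), OTUD6B, UCHL5 of the proteasome and VCPIP1 (14 each). TNFAIP3, the inhibitor of NF-kappa-B signalling, was in 12, and UCHL1 was in 0. No gene of these lists passed in any of the 3 comparisons (Fisher's exact test, adjusted).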

How the data were processed

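The peak lists of 28 libraries (84192 peaks) were used as deposited. Genrich, Picard, SAMtools, BWA and FastQC are named, without versions or roles, in the submitters' processing notes, as is the build Sscrofa11.1. Per the file headers each peak has a deposited signal value (its area), a score, a p-value column and a summit. The deposited p-value column reached 7880.9 and so holds −log10 p. The deposited score equalled 1000 times signal over width, capped at 1000, in 99.9988% of peaks. Lists are per library, not pooled, and hold no read counts, so depth is unknown; an unlisted site can be closed, thinly sequenced or removed before deposit. Values of −log10 p carry the depth of their library.

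Starts were read as counted from 0 and printed as counted from 1. Gene ends were taken from a RefSeq table (Sscrofa11.1) without strand; sequences were not used here. Each protein-coding gene listed in at least 3 libraries of a comparison was tested by Fisher's exact test, two-sided, on libraries with an end peak, with Benjamini-Hochberg adjustment over all genes tested and a threshold of 0.05. The smallest p at 7 against 7 is 0.000583. The planned count models were not run, since the file holds no counts, and the planned promoter motifs were not searched. Whether replicates came from separate animals is not stated; p-values then measure only the spread between libraries.

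Named members were the first 10 UBE2 and 12 USP genes by number of libraries with ties, the 4 smallest p per comparison (ties taken unless p was 1), leading members of each role list, the 3 strongest by rank within a library, and close relatives. Some genes of the lists are counted in them but not reported here by name. The members and lists were chosen with earlier results of these data known. The test was checked on simulated listings, in which a gene without a planted difference had the same chance in every library. The libraries here listed from 1 to 7082 protein-coding genes, so that check did not cover their differences in yield. Alternatives were other windows, other ways to locate a peak, stronger peaks, equal peak numbers, the replicate block and each library left out. Scripts used scipy 1.17.1, pandas 2.3.3 and numpy 2.4.6 under Python 3.11.15, and matplotlib 3.10.9 for plots.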

Additional observations from a re-analysis of the deposited data

Results flagged for a closer look

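Of 16 group measures examined for a library far from the others (numbers and shares of UBE2 and USP genes in 4 groups), 2 were set apart. With independent, normally distributed values chance sets apart about 1 in 20. That rate need not hold here, since many values were tied and the libraries listed very unequal numbers of genes. In low fat 200 replicate 2 USP genes made up 0% of the listed protein-coding genes, below the other 6 libraries of its group, but it listed 13 such genes in all. In low fat 600 replicate 5 they made up 2.53%, above the others, which is 2 USP genes (USP1 and USP53) of 79 listed genes. Its distance to the next value was 0.571 of the range of the group, just over the limit of 0.568.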

How the results depend on the processing

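No gene passed in the 3 comparisons under any alternative except between labels, where a window of 2500 bp gave 2 calls and one of 5000 bp gave 3, none of them a member; the cause was not tested. With each library left out in turn the calls stayed at 0 in all 3, the UBE2 share ranged from 57.6% (without high fat 200 replicate 1) to 72.7% and the USP share from 72.9% to 77.1%. With the 1000 strongest peaks of libraries with at least 1000 peaks the shares were 21.2% for UBE2 and 29.2% for USP, as fewer peaks were kept. In that setting the fat difference of USP15 in the 200 libraries turned to 15 points and that of USP53 in the 600 libraries to 33.3 points, neither passing (exact p = 1); the cause was not tested. Another 2 settings were chosen after the data were seen. Leaving out high fat 200 replicates 1 and 7 together, the libraries with the most peaks (17652 and 11943), gave 51.5% for UBE2 and 66.7% for USP. The share of all protein-coding genes was not computed for this setting or with 1 library left out. The 47% of all 28 libraries is thus no background for these shares. Some genes were listed only in high fat replicates 1 and 7 of the 200 and 600 sets. They were 7 of 24 listed UBE2, 6 of 37 listed USP and 2104 of 9164 listed protein-coding genes. Keeping only libraries with at least 1000 peaks gave 72.7% and 77.1%.

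With the replicate block (exact sign test over pairs) 0 genes passed in each comparison, and between labels 104 had an unadjusted p under 0.05, 2 of them members. With each library left out, unadjusted counts ranged from 0 to 10 (fat, 200 set), 0 to 7 (fat, 600 set) and 237 to 680 (labels). Same-numbered high and low fat libraries share only a number: their deviations correlated above 0.1 in 2 of 7 pairs in the 200 and 1 of 7 in the 600 set. Between the 200 and 600 libraries of 1 number it was 7 of 14, and 6 of 14 correlated best with their own number. The highest correlation, 0.650, was that of low fat replicate 2, whose 200 and 600 libraries listed only 13 and 2 protein-coding genes. For replicates 1 and 7 it was 0.0622 and 0.0991 (high fat) and 0.0773 and 0.229 (low fat). These counts thus do not show that same-numbered libraries share an animal. Restricting to start sites was not run without strand. Yield limits all absences, since libraries list as few as 39 peaks.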
